A study of Homo sapiens with 12 samples.

Results

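Among 28439 gene symbols measured by RNA-seq, 109 were silent in Saos-2 cells without p53 and present in every library of the same line expressing p53-WT. The line was derived from an osteosarcoma and lacks p53. A symbol was taken as a member when its counts summed to 3 or fewer over the 3 p53-null libraries and reached at least 20 in each of the 3 p53-WT libraries, with symbols starting with HSP, HIST or ZNF left out, which removed 0 symbols. The labels give 16 h of induction for both Saos-2 groups. The same genes were then followed in TOV-112D, an ovarian adenocarcinoma line whose own p53 carries R175H, treated for 3 h with DMSO, UCI-1001 or UCI-1014 (2 libraries each). DMSO is the solvent of both compounds, UCI-1001 is a pyrimidine trione found in a computer screen for molecules that return mutant p53 to activity, and UCI-1014 is an analog of it. No dose is given in the labels. The p53-null cells are the parental line and the p53-WT cells an engineered, inducible derivative, so the groups differ in how the line was made as well as in p53. Nothing in the labels says that replicates are separate cultures, so p-values measure the spread between these libraries, which may be technical.

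p53 is a transcription factor that binds DNA as a tetramer and activates genes for cell cycle arrest, DNA repair and cell death. In the absence of p53 most of its well-known targets still have a basal level of transcript. Genes of a particular lineage, such as those of neurons, blood cells, skin or muscle, are usually kept silent in cells of another lineage. The R175H substitution destabilizes the DNA-binding domain of p53, and tumour cells that carry it usually contain much of the inactive protein.

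Deposited counts summed to 19593655 to 21513227 in the p53-null libraries, to 20709560 to 24629558 in the p53-WT libraries and to 17762027 to 20717898 in the TOV-112D libraries. Levels are given as CPM, the count relative to the library size after scaling with edgeR's TMM factors. Of the 73 genes on a list of p53 targets, 72 were not members, and 65 of these were tested. With p53-WT, 63 of the 65 were higher and 2, POLK and TP73, were lower (edgeR, adjusted p under 0.05), beside 33.5% of all 14272 genes tested that were higher and 33.0% that were lower. GDF15, BTG2, CDKN1A and TP53I3 were among the largest rises, and GDF15, a stress-induced cytokine, was at 0.777 CPM without p53 and 214 CPM with it (log2 fold change 8.09, SE 0.19). Replicate 1 stood apart in both Saos-2 groups: the chi-square of the counts per degree of freedom, which is 1 for sampling noise alone, was 25.5 and 23.7 against the other p53-null libraries and 39.6 and 39.2 against the other p53-WT libraries, while the latter pairs gave 3.75 and 2.98. In checks of the cell lines against lists of markers, 1 of 14 osteoblast genes, SP7, was at 0 in Saos-2, and 1, IBSP, in TOV-112D. That list summed to 71.0 to 83.4 CPM in p53-null Saos-2 and to 154.0 to 159.5 CPM in TOV-112D with DMSO. Of 12 ovarian carcinoma genes, 1, KRT18, was at 0 in TOV-112D, and 1, MUC16, in Saos-2. Their sums were 2732 to 3133 CPM in p53-null Saos-2 and 7939 to 8047 CPM in TOV-112D with DMSO.

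The p53-null libraries held 38 to 54 counts over all 109 members together, and each library detected 30 to 40 of them. The p53-WT libraries held 8882 to 11352 counts, between 0.0429% and 0.0461% of each library. No p53-null count was found for 39 members, while 24 members had 1 count, 24 had 2 and 22 had 3 over the 3 libraries. These values chose the members, so they are a description, and no test of the Saos-2 difference is given. The opposite rule, silent with p53-WT and at least 20 counts in each p53-null library, found 1 symbol, NCLP1 (33, 39 and 44 counts against 0, 1 and 1). In all, 12429 symbols were silent in p53-null cells by the same limit. Another 1195 of them had more than 3 counts in p53-WT cells but a library under 20.

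The members with the most reads were KLHL30, INPP5D and LHX3. KLHL30 (ENSG00000168427, GRCh38 chromosome 2, 238138668 to 238152947), a kelch-like protein, had 1, 0 and 0 counts in the p53-null libraries and 659, 515 and 622 in the p53-WT libraries, or 27.4 ± 1.78 CPM (SD, n = 3). With a single p53-null count its ratio was 1803, and the counting error alone put it between 323 and 71259. Neither this range nor the folds given next allow for the choice of the genes by these same counts. INPP5D (ENSG00000168918, chromosome 2, 233059967 to 233207903), the inositol phosphatase SHIP1 that limits signalling in blood cells, had 0 counts in each p53-null library and 514, 474 and 530 in the p53-WT libraries (23.2 ± 0.424 CPM), summed over 2 identifiers of that symbol. Against the limit of 3 counts over the p53-null group it was at least 508-fold higher. LHX3 (ENSG00000107187, chromosome 9, 136196250 to 136205128), a LIM homeobox factor needed for the pituitary and for motor neurons, had 0 counts in each p53-null library and 536, 387 and 429 with p53-WT (20.6 ± 2.70 CPM), at least 451-fold higher. In these 3 genes the lowest p53-WT library lay far above the highest p53-null library, as the rule requires of every member.

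**Figure D1:**
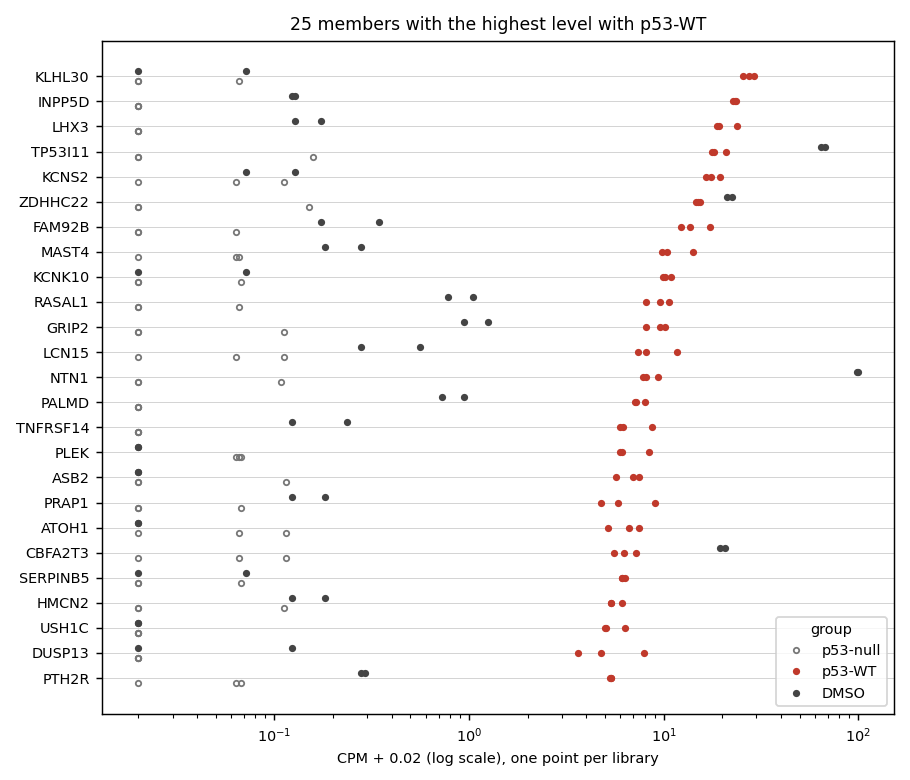
Level of the 25 members with the highest mean in p53-WT Saos-2 cells, as CPM plus 0.02 on a logarithmic axis, with 1 point per library for p53-null Saos-2, p53-WT Saos-2 and TOV-112D with DMSO. The p53-WT points run from 27.4 CPM on average for KLHL30 down to 5.31 CPM for PTH2R, while the DMSO points of TP53I11, ZDHHC22, NTN1 and CBFA2T3 lie above their p53-WT points.

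Most members stayed at low levels even with p53-WT. Their median was 2.72 CPM, with 9 members at 10 CPM or more and 39 under 2 CPM. The lowest was TNNT3, the troponin T of fast skeletal muscle, at 1.11 CPM from 33, 20 and 20 counts. Per length, the median over the 92 members whose transcripts could be matched to the gene counts was 1.71 TPM in p53-WT cells, beside 13.4 TPM over 12561 symbols with at least 20 counts in each p53-WT library, of which 11.2% lay below the members' median. On the TPM scale the highest were the short transcripts of LCE1C (12.2 TPM), a protein of the cornified skin envelope, PRAP1 (12.2 TPM) and LCN15 (11.9 TPM), a lipocalin, followed by LHX3 (10.9 TPM). INPP5D was not among the 92, because its transcript sums did not match its gene count. The median coefficient of variation over the p53-WT libraries was 15.7%, from 0.620% for PTH2R, a parathyroid hormone receptor, to 42.6% for DAZL, an RNA-binding protein of germ cells. These extremes rest on few counts (119, 107 and 121 for PTH2R, and 20, 22 and 44 for DAZL). Counting error was not separated from them. Replicate 1 was the highest p53-WT library for 58 members (53.2%), beside 43.1% of the 12593 symbols with at least 20 counts in each p53-WT library. The part of that library's difference in these levels was not tested.

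At the edge of the rule, the members with the lowest p53-WT minimum were ADCY5, DAZL, TNNT3 and ODF3L1 at 20 counts and GRHL3 at 21. Just outside were PDE10A, BEND2, WNT5A and TLX1 with a minimum of 19 and RNASE7 with 18. With 4 p53-null counts instead of 3, PADI3 (296, 256 and 292 p53-WT counts), DKK2, STAR, HEPACAM and ESRRB also stood just outside.

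The members were sorted by what their products are known to do. Protein-coding genes made up 104 of the 109 (95.4%), beside 36.1% of the symbols silent in p53-null cells and 67.7% of all symbols. Members had to be read in every p53-WT library and those sets did not, so the shares are not like for like. Pseudogenes made up 4 members (OXCT2P1, PGAM1P4, KRT8P45 and ARHGAP27P2). The remaining one, C4B_2, a copy of complement C4, was not found in the annotation.

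Transcription regulators numbered 10, with LHX3 the highest. ATOH1, the basic helix-loop-helix factor of inner ear hair cells and secretory gut cells, had 1, 2 and 0 counts without p53 and 169, 104 and 151 with p53-WT. POU3F1, a POU-homeobox factor of neural and Schwann cells, had 0 counts in each p53-null library and 94, 114 and 119 with p53-WT. CBFA2T3, a co-repressor of blood progenitors, had 141, 112 and 163 counts with p53-WT. The class also held the forkhead factors FOXF1 and FOXS1, the cortical homeobox gene EMX1, the co-regulators LBH and TOX, and GRHL3, a grainyhead factor of skin. GRHL3 was the only gene of the p53 target list among the members (33, 21 and 23 counts with p53-WT). That list is a selection, and TP53I11, a member named as p53-inducible, is not on it. By symbol, 3 members were homeobox genes (2.75%, beside 0.563% of all symbols). Another 3, FOXF1, FOXS1 and ATOH1, fell in a pooled group of forkhead, SOX, T-box, GATA and basic helix-loop-helix factors (2.75%, beside 0.425%). For G protein-coupled receptors the symbol pattern found 1 member, NPY2R (0.917%, beside 3.83% of all symbols and 6.93% of those silent in p53-null cells). The pattern is incomplete, since PTH2R, a member and also such a receptor, is not in it. Interleukins, chemokines and their receptors had 0 members by symbol, beside 0.531% of all symbols. These shares were not tested.

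Ion channels and transporters made up 10 members. KCNS2, a silent subunit that modifies voltage-gated potassium channels, had 2, 0 and 1 counts without p53 and 397, 331 and 441 with p53-WT, or 17.8 ± 1.49 CPM. KCNK10, a leak potassium channel, had 223, 218 and 231 counts with p53-WT. The other members were KCNA2, a voltage-gated potassium channel, SCNN1G, a subunit of the epithelial sodium channel, CHRND, the delta subunit of the muscle acetylcholine receptor, SLC2A2, the glucose transporter GLUT2 of liver and beta cells, the water channel AQP1, FXYD3, MLC1 and LYNX1. The synaptic, neuronal and sensory genes were led by GRIP2, a scaffold of glutamate receptors, at 230, 193 and 183 counts, and USH1C, the harmonin of hair cells, at 143, 100 and 115 counts. The others were SORCS2, LGI3, OTOF, JPH4, FRMPD2 and NCKAP5. In all p53-null libraries, USH1C, LGI3 and NCKAP5 were at 0 counts.

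Secreted ligands and hormones made up 8 members and cell surface receptors another 8. NTN1, the axon guidance cue netrin-1, had 177, 163 and 211 counts with p53-WT. One of its dependence receptors, UNC5A, was also a member, with 112, 86 and 124 counts. The other ligands were WNT7B, WNT11, NODAL, SEMA3G and the peptide precursors ADCYAP1, PPY and TAC4. TNFRSF14, a receptor of the TNF family on lymphocytes, had 0 counts without p53 and 196, 120 and 140 with p53-WT. PTH2R had 119, 107 and 121 counts, and the receptor tyrosine kinase RET had 75, 67 and 68. NPY2R, KLRG2, CLEC1A and LDLRAD1 completed the receptors.

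INPP5D led 9 genes best known from blood and immune cells or plasma. PLEK, the pleckstrin of platelets and leukocytes, had 1 count in each p53-null library and 190, 120 and 138 with p53-WT. F5, coagulation factor V, BLNK, an adaptor of B cells, APOBEC3H, a cytidine deaminase that restricts viruses, and WDFY4 had 0 counts in each p53-null library. HLA-DOA, LGALS9 and C4B_2 completed the class. INPP5D was the only member among the 20 genes of a list of blood and immune cell markers, of which 11 were silent in p53-null cells, and CD3E and HBB of that list were at 0 in every Saos-2 library. The list's summed level was 100.1 to 109.7 CPM in p53-null libraries and 159.7 to 192.3 CPM in p53-WT libraries. LHX3 was the only member on a list of 20 neuronal and neuroendocrine genes, whose sum was 1982 to 2141 CPM without p53 and 860 to 1088 CPM with it. A sum follows the most abundant genes of a list. Of the 10 genes of this list tested outside the members, 5 were higher with p53-WT and 1 lower (edgeR, adjusted p under 0.05). Over all genes tested the shares were 33.5% and 33.0%. DAZL was the only member on the germ cell list, while 0 genes of the lists for epithelia, muscle, endothelium, osteoblasts and ovarian carcinoma were members. Of these, the muscle list summed to 50.2 to 55.2 CPM without p53 and 261 to 298 CPM with it, and the epithelial list to 725 to 783 and 923 to 1180 CPM. The endothelial list summed to 19.2 to 19.8 and 26.3 to 31.2 CPM, the osteoblast list to 71.0 to 83.4 and 66.6 to 72.2 CPM, the ovarian carcinoma list to 2732 to 3133 and 3111 to 3365 CPM, and the germ cell list to 944 to 1094 and 924 to 979 CPM. By the same calls outside the members, of 7 epithelial genes tested 6 were higher with p53-WT and 0 lower. Of 6 muscle genes 3 were higher and 1 lower, and of 3 blood genes 2 and 0. Of 4 endothelial genes 2 were higher and 2 lower, and of 7 osteoblast genes 2 and 3. Of 6 ovarian carcinoma genes 2 were higher and 1 lower, and of 3 germ cell genes 1 and 1. The part of other cell types in the members' levels was not tested.

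Epithelial and skin genes, with proteases and their inhibitors, formed the most numerous class, at 12. SERPINB5, the serpin maspin of epithelia, had 0, 1 and 0 counts without p53 and 137, 122 and 143 with p53-WT. PRAP1 had 204, 96 and 132 counts with p53-WT and shares exons on its strand with a readthrough transcript at 160, 122 and 153 counts, so the split between them is uncertain. LCE1C and WFDC5 each summed to 261 counts with p53-WT and 0 without. SPINK6, LGALS7B, PRSS56, CRB2, GKN1, HPN, CLDN19 and EPPK1 were the others. Another 9 members encode proteins of the extracellular matrix or bound to it, among them COL4A1, a chain of basement membrane collagen, COL9A2 and COL9A3 of cartilage, COL26A1, and HMCN2, a hemicentin (137, 108 and 122 counts). MEGF6, ECM2, CSPG4 and SUSD2 completed that class. By symbol, 4 members were collagens (3.67%), beside 0.302% for collagens, laminins and integrins among all symbols. COL4A1 had 86, 60 and 99 counts with p53-WT, whereas its head-to-head neighbour COL4A2, which supplies the partner chain, had 7, 3 and 12.

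Signalling enzymes and adaptors made up 9 members. ZDHHC22, a palmitoyltransferase, had 340, 294 and 351 counts with p53-WT. MAST4, a serine/threonine kinase, had 221, 209 and 322, RASAL1, a Ras GTPase-activating protein, had 241, 162 and 217, and DUSP13, a dual-specificity phosphatase, had 178, 73 and 108. DUSP13 was among the least even, with its replicate 1 well above the other libraries. NEDD9, DTX1, TRIM67, GNA14 and ADCY5 completed the class. The muscle genes were PALMD (162, 143 and 181 counts), ASB2, a ubiquitin ligase subunit of muscle and blood (168, 114 and 158), the myosin chaperone UNC45B and TNNT3. Metabolic enzymes, carriers and chaperones were LCN15 (263, 163 and 167 counts), CRYAB, the small heat shock protein alpha-B-crystallin (0 counts without p53, then 111, 77 and 81), UGT2B17, ALDH1A1 and AHSG. Genes of cilia and germ cells were FAM92B (389, 247 and 310 counts), PIH1D3, GAS2L2, DAZL, ODF3L1 and RIMBP3C. TP53I11, a membrane protein named as p53-inducible, had 3, 0 and 0 counts without p53 and 400, 366 and 473 with p53-WT. TP53I11, KLHL30, ANKRD65, BTBD11, HEPN1, RTL9 and CAPG were left without a class.

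The DNA around the transcript starts was searched for the p53 full site, the p53 consensus of 20 bases made of a pair of abutting decamers, because these genes were chosen by their difference between p53-null and p53-WT cells. The search covered 2500 bp on each side of the start of the canonical transcript in GENCODE, which can differ from the outer start of the gene, and read on either strand, since the consensus is its own reverse complement. It required the invariant C and G of each decamer and allowed at most 2 mismatches elsewhere, with no spacer. A match was found for 11 of the 104 protein-coding members (10.6%), for 25 of 72 genes of the p53 target list (34.7%), for 3.90% of 4381 other protein-coding genes silent in p53-null cells and for 3.81% of all 19261 protein-coding genes. A match is a description of letters, not a bound site. The members with a match were F5, ANKRD65, APOBEC3H, CHRND, FOXF1, FOXS1, KCNA2, LCN15, MEGF6, NTN1 and UGT2B17, and the last of these and ANKRD65 had 2 each. Only the match of F5 had a single mismatch, a class found in 0.514% of all protein-coding genes. It is shown here with the matches nearest to the canonical starts, read from GRCh38 on the strand of the gene with 5 flanking bases on each side in lower case, and capitals mark the match.
F5: actaaGAACTTGTTCTAACTTGTCCtgccc
ANKRD65: tccacAAGCATGTTCCTGCTTGTCCtcccc
APOBEC3H: gcctcAGACAAGCAGGGGCAAGTCTgctaa
LCN15: agtccAGGCAAGGCAGGACAAGTCTctgct
The match of F5 lies at chr1:169584670-169584689 on the minus strand, 1801 bp downstream of the canonical start. That of ANKRD65 is at chr1:1421482-1421501, minus strand, at -215 bp from the canonical start though within the bounds of the gene, that of APOBEC3H is at chr22:39097291-39097310, plus strand, 56 bp downstream, and that of LCN15 is at chr9:136764803-136764822, minus strand, at -294 bp and likewise within the gene. LHX3, INPP5D and KLHL30 had no match in this window, which says only that these letters are not in it.

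**Figure D2:**
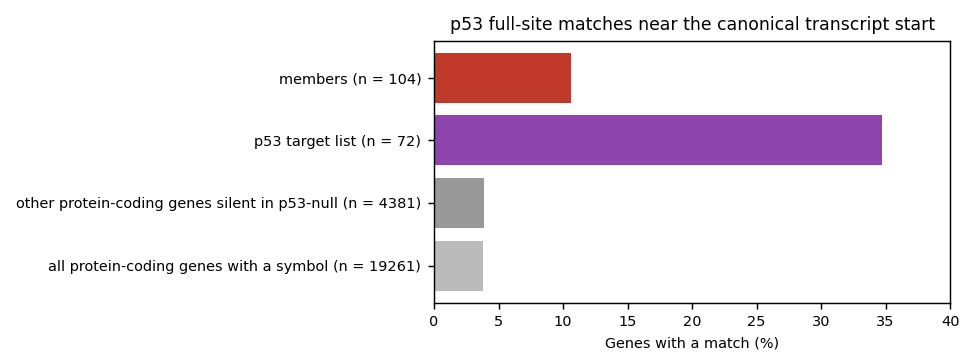
Share of protein-coding genes, in percent, with a match to the p53 full site within 2500 bp of the canonical transcript start, for the members, the p53 target list, other genes silent in p53-null cells and all genes. The bar of the members (10.6%) lies between that of the target list (34.7%) and the bars of the background sets (3.90% and 3.81%).

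Transcripts were read from the authors' estimated counts per transcript. For 12 of the 104 members used here, INPP5D and ASB2 among them, the transcript sums did not match the gene count, so their shares cover only the transcripts that could be joined. For the 104 members, each with at least 20 estimated counts over the p53-WT libraries, the leading transcript was the canonical one for 69, held 90% or more of the counts for 45 and was annotated as protein-coding for 93. LHX3 was read almost wholly as its canonical transcript (95.8%), and INPP5D to 63.6%. For 11 members the leading transcript started more than 1 kb downstream of the canonical start. For ASB2 a retained-intron transcript took 88.6% of the counts, and for DTX1, a Notch regulator, a transcript without a defined coding sequence took 73.8%. In TOV-112D with DMSO, DTX1 was read instead as a coding transcript to 87.5%. Of 24 members with enough counts in both p53-WT Saos-2 and DMSO, DTX1 was the only one whose leading transcript differed, and 23 shared it. CBFA2T3 was read in both lines from a start 36009 bp downstream of its canonical start.

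The members were spread over the genome, with 15 on chromosome 1 and 12 on chromosome 2 as the highest numbers. Within 100 kb of each other lay 4 pairs, CHRND and PRSS56 (277 bp apart), DTX1 and RASAL1 (791 bp), CSPG4 and ODF3L1 (11193 bp) and FXYD3 and HPN (49250 bp). For 96 members a nearest gene that was not a member and was tested lay within 100 kb, and 40 of these neighbours (41.7%) were higher with p53-WT and 23 (24.0%) lower. Around 7753 other silent symbols the same shares were 33.6% and 31.9%. The difference between these shares was not tested. Among the higher neighbours, the readthrough transcript of PRAP1, HEPACAM and DENND1A share exons with their members, and SNX33 counted for both CSPG4 and ODF3L1. Among the lower, a zinc finger gene shares exons with BLNK, and TIGD1 counted for both CHRND and PRSS56. HEPN1 shares 1428 bp of exon on the opposite strand with HEPACAM (85, 105 and 79 counts with p53-WT), and RIMBP3C overlaps UBE2L3, which had 3716 to 4895 counts in every Saos-2 library, so the counts of HEPN1 and RIMBP3C are uncertain if strand was not used. The same holds for CRB2, which shares 362 bp with DENND1A (591 to 648 counts without p53 and 1346 to 1631 with it), for GRIP2, which shares 243 bp with SLC6A6 (1273 to 1594 counts), for BLNK, which shares 364 bp with a zinc finger gene (329 to 738 counts), and for COL9A3, which shares 155 bp with TCFL5 (224 to 290 counts). The counts of C4B_2, RIMBP3C, LGALS7B, LGALS9, UGT2B17 and HLA-DOA are uncertain too, because near-identical copies or several identifiers can split their reads.

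In TOV-112D cells with DMSO the members fell into different classes of level. Of the 109, 51 (46.8%) had 3 counts or fewer over both DMSO libraries and 17 (15.6%) had at least 20 counts in each, with 41 in between. Over all symbols these shares were 45.1% and 43.4%. Counting protein-coding genes only, 17 of 104 members (16.3%) had at least 20 counts in each DMSO library, beside 6.57% of 4381 other genes silent in p53-null cells. For 3 counts or fewer the shares were 45.2% and 79.8%. Unlike the members, those other genes did not have to be read in any library, and the differences were not tested. In 12 members all 6 TOV-112D libraries were at 0, among them LCE1C, SPINK6, SLC2A2, BLNK and UGT2B17. In bulk samples, fewer cells expressing a gene and less RNA per cell cannot be told apart.

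LHX3 and INPP5D were near 0 in TOV-112D. LHX3 had 3 and 2 counts with DMSO, 1 and 2 with UCI-1001 and 0 and 0 with UCI-1014. INPP5D had 2 and 2, 0 and 2, and 2 and 4 counts in the same order. KLHL30 had 1 and 0 counts with DMSO. All 3 were below the filter on low counts.

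ALDH1A1, which makes retinoic acid and is often used as a marker of stem-like tumour cells, had 67, 76 and 65 counts in p53-WT Saos-2 but 20030 and 18455 counts with DMSO in TOV-112D, or 1016 CPM. It alone took 71.8% and 71.6% of the members' counts in the DMSO libraries. COL4A1 was at 124 CPM with DMSO and NTN1 at 99.6, TP53I11 at 65.9, ZDHHC22 at 21.8, CBFA2T3 at 20.1, COL26A1 at 15.4, DTX1 at 9.01, TOX at 5.77 and MEGF6 at 5.13 CPM. These 10 had the highest DMSO levels, and each was above its own level in p53-WT Saos-2 cells, as were 13 of the 109 members. The comparison between lines is of levels scaled within each line and was not tested. COL4A2 was at 173 CPM with DMSO, beside COL4A1 in this line but not in p53-WT Saos-2.

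**Figure D3:**
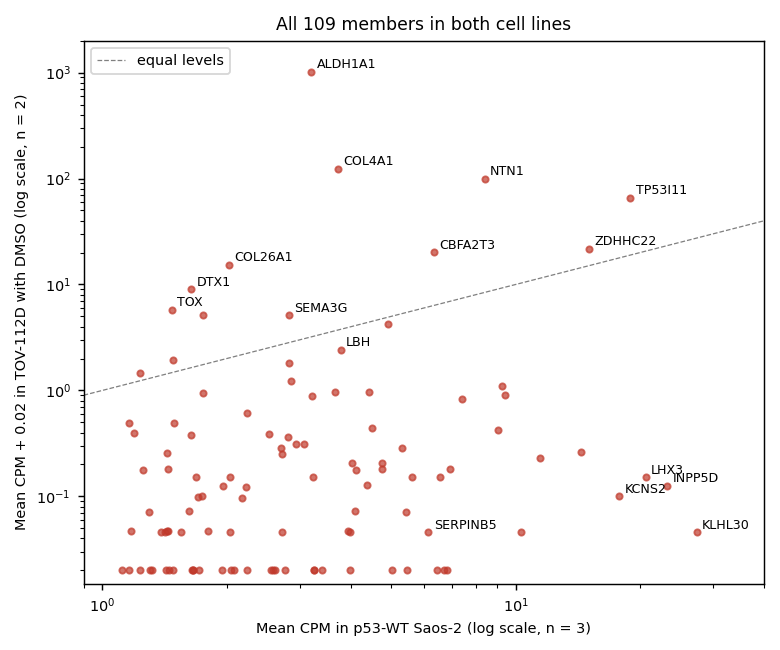
Mean CPM of each of the 109 members in p53-WT Saos-2 cells (horizontal, n = 3) against mean CPM plus 0.02 in TOV-112D cells with DMSO (vertical, n = 2), both on logarithmic axes, with a dashed line of equal levels. ALDH1A1 at 1016 CPM tops the plot, 13 members lie above the line, and KLHL30, INPP5D and LHX3 lie at the lower right.

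The compounds were compared with DMSO to see whether genes silent without p53-WT in Saos-2 moved in cells with p53-R175H. The filter on low counts was passed by 32 of the 109 members, and p-values were adjusted over all 14174 genes tested in TOV-112D. Both compounds were set against the same DMSO libraries. With UCI-1001, 2 of the 32 were called (edgeR, adjusted p under 0.05), beside 15.8% of all genes tested: LBH rose and COL4A1 fell. With UCI-1014, 8 of the 32 were called, beside 47.1% of all genes tested, with LBH, CRYAB and NEDD9 rising and COL4A1, CBFA2T3, NTN1, TP53I11 and MEGF6 falling. Between UCI-1014 and UCI-1001, 4 of the 32 were called, beside 31.1% of all genes tested. In each comparison the share of tested members called was below that of all genes, a difference that was not tested. Some of the 32 had few counts, which limits what could be called. With DMSO, OTOF had 9 and 9 counts and JPH4 had 12 and 2, and for UCI-1001 their log2 fold changes had SEs of 0.47 and 0.66. The 32 members had a median log2 fold change of 0.026 for UCI-1001, beside 0.0016 over all genes tested, and of -0.088 for UCI-1014, beside -0.016.

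LBH, a transcription co-regulator of limb bud and heart, moved with both compounds. Its counts were 53 and 38 with DMSO, 129 and 110 with UCI-1001 and 223 and 257 with UCI-1014, or 2.73 and 2.06, 6.39 and 5.53, and 13.3 and 13.1 CPM. The 3 groups did not overlap. Against DMSO the log2 fold change with UCI-1001 was 1.31 (SE 0.18, adjusted p = 1.9e-04, edgeR) and that with UCI-1014 was 2.46 (SE 0.16, adjusted p = 1.7e-08, edgeR), and UCI-1014 exceeded UCI-1001 by 1.15 (SE 0.14, adjusted p = 2.2e-05, edgeR). In p53-WT Saos-2 cells LBH was at 3.77 ± 0.733 CPM.

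CRYAB had 4 and 2 counts with DMSO, 17 and 7 with UCI-1001 and 51 and 34 with UCI-1014. Every UCI-1014 library lay above every other library. The log2 fold change with UCI-1014 was 3.85 (SE 0.58, adjusted p = 6.7e-05, edgeR), while that with UCI-1001 was 1.88 (SE 0.70) and missed the threshold (adjusted p = 0.0896, edgeR). UCI-1014 exceeded UCI-1001 by 1.98 (SE 0.45, adjusted p = 0.0039, edgeR), a call lost without replicate 1 of UCI-1014 (log2 fold change 1.54, adjusted p = 0.070, edgeR). DESeq2 gave CRYAB no adjusted p there. NEDD9, a docking protein of focal adhesions, had 6 and 8 counts with DMSO, 15 and 14 with UCI-1001 and 16 and 18 with UCI-1014. Its log2 fold change with UCI-1014 was 1.33 (SE 0.46, adjusted p = 0.029, edgeR), and the call was lost when any single TOV-112D library was left out (adjusted p between 0.052 and 0.185, edgeR) and with DESeq2 (0.155).

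COL4A1 was at 125.4 and 123.1 CPM with DMSO, 107.6 and 107.9 with UCI-1001 and 87.9 and 85.5 with UCI-1014. The groups did not overlap, and the log2 fold changes against DMSO were -0.21 (SE 0.043, adjusted p = 0.0043, edgeR) and -0.52 (SE 0.044, adjusted p = 2.3e-07, edgeR). The difference between the compounds was -0.31 (SE 0.044, adjusted p = 9.0e-05, edgeR). The call with UCI-1001 was lost without replicate 1 of DMSO (-0.20, adjusted p = 0.082, edgeR). TP53I11 went from 67.2 and 64.6 CPM to 54.9 and 54.3 with UCI-1014 (log2 fold change -0.27, SE 0.055). CBFA2T3 went from 19.5 and 20.6 to 13.6 and 15.8 (-0.44, SE 0.093), and NTN1 from 100.3 and 98.9 to 74.8 and 87.7 (-0.29, SE 0.063). In each of these the groups did not overlap. With 2 libraries a group that is a weak criterion, and the genes were called from the same values. Here and for LBH, CRYAB and COL4A1 it is a description only. MEGF6 went from 5.88 and 4.39 to 2.69 and 3.68 CPM (-0.68, adjusted p = 0.022, edgeR), and was not called without replicate 1 of DMSO (-0.44, adjusted p = 0.241, edgeR), without replicate 1 of UCI-1014 (-0.47, 0.168) or with DESeq2 (-0.67, 0.083). Between the compounds NTN1 also differed, by -0.19 (SE 0.063, adjusted p = 0.032, edgeR), a call lost in 7 of 12 alternatives, where the adjusted p lay between 0.055 and 0.399 and the difference was smallest, -0.074, without replicate 1 of UCI-1014.

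**Figure D4:**
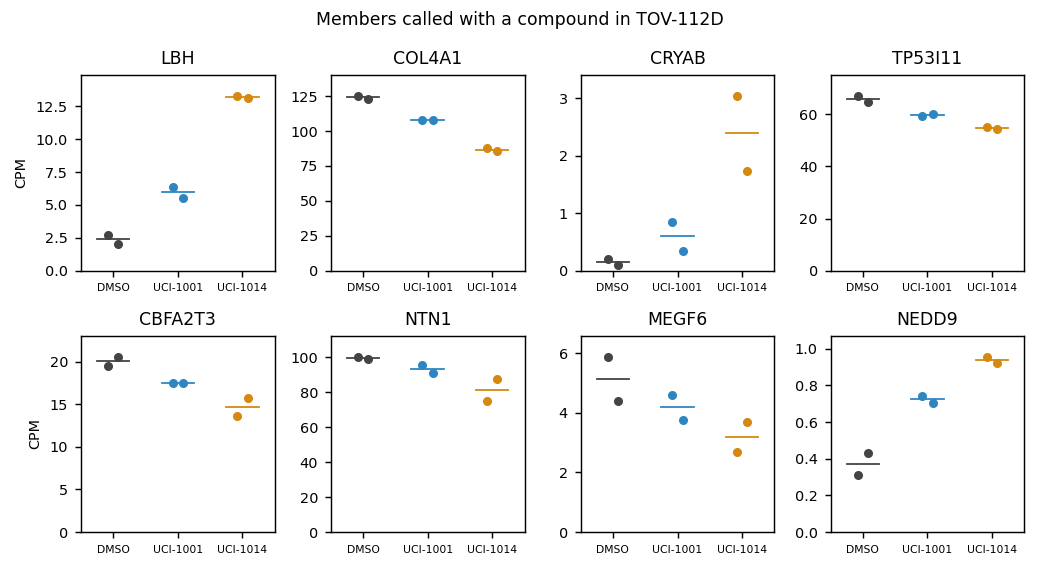
CPM of the 8 members called with a compound in TOV-112D, with 1 point per library and a line at the mean of each group of 2, each panel starting at 0. LBH, CRYAB and NEDD9 have their highest mean with UCI-1014 and the other 5 their lowest.

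The member with the most reads in TOV-112D did not pass the test. ALDH1A1 was at 1032 and 999 CPM with DMSO, 1019 and 1022 with UCI-1001 and 991 and 969 with UCI-1014, with log2 fold changes of 0.0069 (SE 0.034) and -0.052 (SE 0.034). ZDHHC22 had log2 fold changes of 0.00035 (SE 0.078) and -0.13 (SE 0.080). Below the filter, ASB2 had 0 counts in the DMSO and UCI-1001 libraries and 8 and 4 with UCI-1014, DAZL had 0 in the same 4 libraries and 7 and 2, and EMX1 had 1 and 0 with DMSO, 5 and 1 with UCI-1001 and 14 and 8. These counts are small, and the 3 genes were picked out after their values were seen. Of the p53 target list outside the members, 59 genes were tested in TOV-112D. UCI-1001 raised 13 and lowered 2 of them (edgeR), beside 9.39% of all genes tested that rose and 6.36% that fell. UCI-1014 raised 28 and lowered 10, beside 23.7% and 23.4% of all genes. CDKN1A, the cell cycle inhibitor p21, rose from 8.49 to 26.6 CPM with UCI-1001 and to 98.6 CPM with UCI-1014, and BTG2, an antiproliferative gene, from 8.77 to 12.8 and 25.9 CPM. TP73, a p53 family member, fell from 25.1 to 20.3 and 16.3 CPM, and TP53I3, an oxidoreductase, was at 70.4, 70.3 and 64.5 CPM and passed neither test.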

How the data were processed

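Values came from processed files. The authors quantified reads against GRCh38 with kallisto 0.48.0, added the estimated counts of the transcripts of each Ensembl gene and deposited the sums as whole-number counts, without normalization (DESeq2 1.38.3 was their test). They also deposited estimated counts and TPM per transcript, which entered no test. The transcript annotation and the use of strand are not given in the sources used here. Counts were summed by symbol, and identifiers without a symbol were kept as they were. Each cell line was fitted with edgeR 4.0.16 in R 4.3.3 (TMM, filterByExpr, quasi-likelihood test, Benjamini-Hochberg over all genes tested), without a block, and TOV-112D groups shared 1 estimate of the spread. With 2 or 3 libraries a group, precision is limited, and edgeR's common biological variation between libraries was 3.59% (TOV-112D) and 12.3% (Saos-2). On simulated counts with known changes the fit was tested first. Folds against 0 counts used a limit of 3 counts over the group, 0.0457 CPM in p53-null. Intervals (95%, exact) cover counting error only. DESeq2 1.42.0 was an alternative. Coordinates, gene types and canonical transcript starts are those of GENCODE release 44, in which 108 of 109 members were found. Sequences were read from GRCh38.

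The members and lists were chosen with earlier results of these data known, and role classes were set after values were seen. Genes named by rule were LHX3, INPP5D, the 25 members highest with p53-WT, members called in TOV-112D, the 10 highest with DMSO, members on a list, those at the limits, pairs within 100 kb, and the largest p53-list rises. Some items named by this rule are not reported here. Other members are named to account for their class. Alternatives changed scaling, filter, test, identifiers, block, fold threshold, left out each library, or moved the limits of the rule.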

Additional observations from a re-analysis of the deposited data

How the results depend on the processing

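The number of silent genes followed the limits of the rule. From 109 it went to 39 with a p53-null sum of 0, to 203 with a sum of up to 10, to 51 with at least 50 counts in each p53-WT library and to 191 with at least 10. Leaving out 1 Saos-2 library at a time, with the same limits, gave 115 to 144. Fewer libraries make the rule looser, so the number could not fall below 109, and the range is no check of it. With the log2 fold change also required to exceed 1 in size, the members called went from 2 to 1 with UCI-1001, from 8 to 3 with UCI-1014 and from 4 to 2 between the compounds, and DESeq2, which gave CRYAB no adjusted p there, gave 2 for the latter. Leaving out 1 TOV-112D library gave 1 to 2, 6 to 8 and 2 to 5. The low ends of the first and last range came without replicate 1 of DMSO (1) and without replicate 1 of UCI-1014 (2), and a group with 1 library left is assumed to vary like the others. Genes of the p53 target list called higher with p53-WT stayed between 59 and 66 over the alternatives, and between 62 and 64 without 1 library. With no filter, 97 members were tested, and CRYAB with UCI-1001 and ASB2, EMX1 and EPPK1 with UCI-1014 were also called, ASB2 also between the compounds. No called member changed sign in an alternative.

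Replicate numbers correlated at 0.0626, -0.0304 and -0.165 between TOV-112D groups and at 0.0758 to 0.139 in Saos-2, so they were not taken to pair samples. A replicate block gave 2, 8 and 3 members called and 63 p53 target genes higher, and in Saos-2 not every library correlated best with its own number. With the UCI-1014 numbers crossed, chosen after seeing the data, the counts were 2, 8 and 4. Depth limits the members under the filter on low counts, whose calls rest on few counts.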
